A study of Mus musculus with 6 samples.

Results

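The genes described here are 8 enzymes and transporters that set phosphate and pyrophosphate where bone matrix mineralizes: Alpl, Phospho1, Smpd3, Enpp1, Ank, Slc20a1, Slc20a2 and Fam20c. They were taken by gene symbol from a table of 43346 rows, and all 8 were found, each in 1 row. RNA was sequenced from MC3T3-E1 cells, an established mouse osteoblastic line, after 2 days in osteoblastic medium given once the cells were confluent. One group of 3 replicates is labelled Rorβ-CRISPR (KO), from cells edited with CRISPR in Rorb, a retinoid-related orphan nuclear receptor gene, and the other group of 3 replicates is labelled as the MC3T3 control line. The labels do not say whether the edited line is 1 clone, whether the control cells carried any edit, or whether each replicate was grown as its own culture. The p-values therefore cover only the spread among these libraries, which may be technical.

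Mineral forms in bone when phosphate and calcium are brought together in small vesicles that bud from osteoblasts and then in the collagen around them. Pyrophosphate holds this back, and it is made outside the cell from ATP by Enpp1, leaves the cell with ATP through the transporter Ank, and is split into phosphate by the alkaline phosphatase Alpl. Inside the vesicles, the sphingomyelinase Smpd3 releases phosphocholine from membrane lipid, the phosphatase Phospho1 frees phosphate from phosphocholine, and Slc20a1 and Slc20a2 import phosphate with sodium. Fam20c is the kinase that phosphorylates secreted matrix proteins such as osteopontin and bone sialoprotein.

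In the libraries labelled Rorβ-CRISPR, the vesicle enzymes and alkaline phosphatase rose, with Smpd3 at 9.69 times, Phospho1 at 2.86 times and Alpl at 2.10 times the control mean. The Phospho1 reads cannot be told apart from those of the overlapping gene Abi3. Enpp1, the maker of pyrophosphate, had 8 reads in all in those libraries against 100 in control. Fam20c and Ank rose by smaller amounts, at 1.37 and 1.12 times the control mean, and Slc20a2 fell to 0.866 times. Slc20a1, the other phosphate importer, did not pass the test.

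The promoter sequences of the genes that rose or fell most and are held by the RefSeq table (GRCm38.p6) are shown, so that the regions before their starts can be compared. That table matched 6 of the 8 genes, with 8 start sites. Each sequence is the 250 bases before a start, read 5′ to 3′ on the gene's own strand. Capitals mark matches on either strand to AGGTCA, the core motif that ROR receptors and other nuclear receptors bind, to ACCACA, the core bound by RUNX factors, or to CACGTG, an E-box. Alpl has an upstream start (chr4:137796385-137796634, minus strand) and a downstream one (chr4:137766476-137766725, minus strand), followed by Enpp1 (chr10:24712160-24712409, minus strand) and Phospho1 (chr11:95824250-95824499, plus strand).
Alpl upstream start: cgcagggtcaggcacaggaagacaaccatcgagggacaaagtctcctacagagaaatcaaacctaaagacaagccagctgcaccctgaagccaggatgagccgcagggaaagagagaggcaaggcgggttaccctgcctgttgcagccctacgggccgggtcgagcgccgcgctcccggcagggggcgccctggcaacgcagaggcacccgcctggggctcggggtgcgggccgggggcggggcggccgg
Alpl downstream start: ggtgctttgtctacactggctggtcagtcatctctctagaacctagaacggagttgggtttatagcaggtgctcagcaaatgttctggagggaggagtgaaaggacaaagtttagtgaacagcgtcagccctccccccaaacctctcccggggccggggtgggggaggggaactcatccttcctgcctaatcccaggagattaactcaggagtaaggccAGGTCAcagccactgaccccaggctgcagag
Enpp1: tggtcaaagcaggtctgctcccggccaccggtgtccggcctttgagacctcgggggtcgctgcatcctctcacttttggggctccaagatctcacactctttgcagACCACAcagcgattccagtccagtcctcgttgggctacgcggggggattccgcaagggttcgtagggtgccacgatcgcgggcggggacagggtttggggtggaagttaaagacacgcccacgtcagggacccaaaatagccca
Phospho1: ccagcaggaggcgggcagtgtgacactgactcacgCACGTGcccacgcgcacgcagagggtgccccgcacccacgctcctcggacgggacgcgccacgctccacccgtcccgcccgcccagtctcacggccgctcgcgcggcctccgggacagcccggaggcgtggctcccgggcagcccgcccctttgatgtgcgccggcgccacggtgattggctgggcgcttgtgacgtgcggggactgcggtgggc
Of these sequences, that of the downstream Alpl start holds AGGTCA, beginning 31 bases before the start. Among the windows not printed, both of Slc20a1, a gene that did not pass the test, hold AGGTCA, and those of Ank and Fam20c hold none of the 3 motifs. Of all 32851 promoter windows of this length, 14% hold AGGTCA, 14% hold ACCACA and 6.02% hold CACGTG. The Enpp1 window holds 1 ACCACA, beginning 144 bases before the start, and the Phospho1 window 1 CACGTG, beginning 215 bases before it. The longer consensus named RORE, whose end overlaps AGGTCA, was found in none of the 8 windows and in 0.332% of all windows. A match is a description of letters, not a bound site. The Phospho1 window has 75.6% G and C with 34 CpG and the upstream Alpl window 68.4% with 20 CpG, whereas the downstream Alpl window has 56.0% with 4 CpG. The median window has 52.4% and 6 CpG. Smpd3 and Slc20a2 are named only.

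Reads in genes ranged from 34662707 to 42603315 per library, recovered from the scaled values, and the deposited values used are CPM after TMM scaling. The targeted gene, Rorb, had 69, 78 and 111 reads in the libraries labelled Rorβ-CRISPR, against 1, 3 and 0 in control. Rorb RNA was thus higher in the libraries labelled as a knockout. Reads per gene show neither an edited base nor the protein, so whether the gene was disrupted was not tested. Every direction given here is between libraries as labelled. Most genes differed between the lines. Of 13498 genes tested with limma-trend, 66.2% passed an adjusted p of 0.05, 32.9% higher and 33.3% lower, and 68.4% had values without overlap between the groups. Of the 8 genes here, 7 passed the filter on low values, and of these 5 were higher, 1 lower and 1 not called. When the test asked for more than a 1.5-fold change, which 7.84% of tested genes passed, 3 of the 7 tested genes were called, all higher: Smpd3, Phospho1 and Alpl. Without a filter, all 8 genes were tested and Enpp1 was called lower as well, where 37% of rows were called. The rows that edgeR's own filter keeps, where 60.1% were called and 30.1% were called lower, also hold Enpp1, but only through the control libraries, in which it is high, so its call there is not counted. The sizes spanned a wide range: 20 tested genes had a larger log2 fold change in either direction than Smpd3, 198 than Phospho1 and 557 than Alpl, whereas 8220 exceeded Ank. Genes also shifted by chromosome. The median log2 fold change was -0.26 on chromosome 15, which holds Ank, and 0.21 on chromosome 5, which holds Fam20c, against 0.002 over all tested genes.

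**Figure D1:**
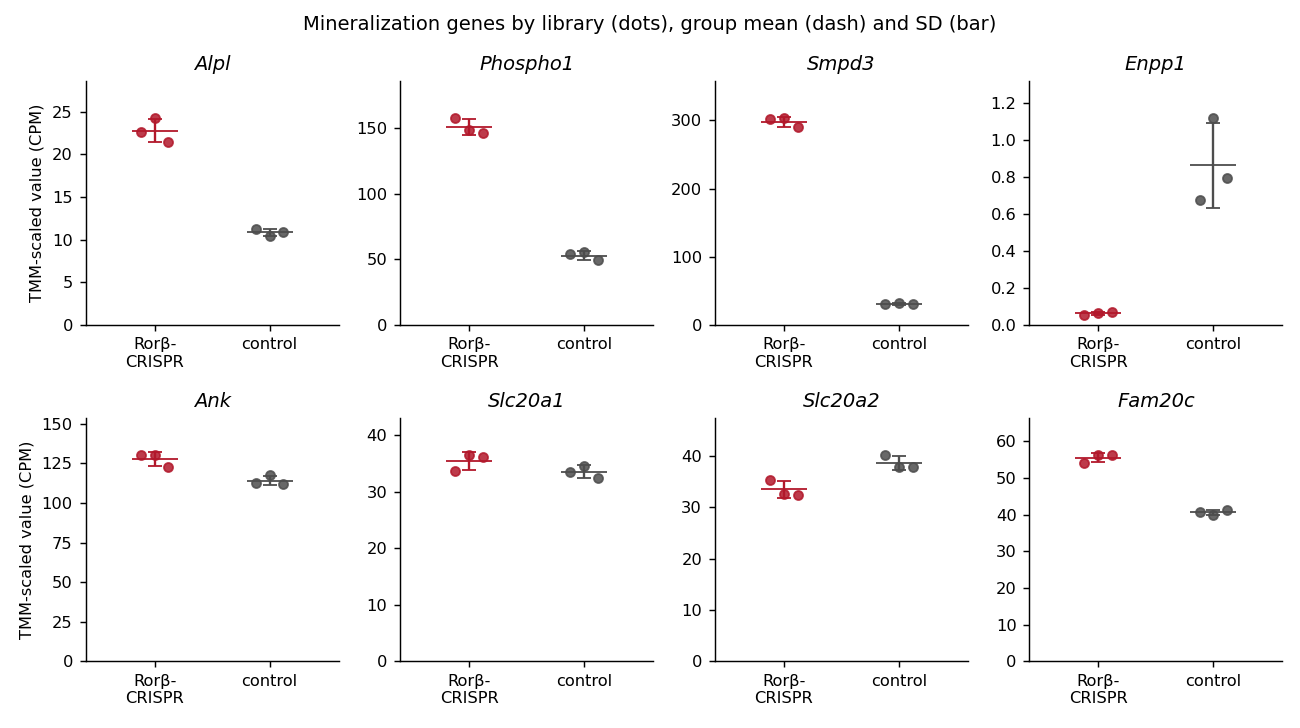
Value in each library (dots; CPM with TMM scaling, each axis starting at 0), with the group mean (dash) and SD (bar), for 3 libraries labelled Rorβ-CRISPR and 3 control libraries. The groups do not overlap for 7 of the 8 genes, with the untested Enpp1 among the 7, and those of Slc20a1 do. Of all tested genes, 68.4% had no overlap between the groups.

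Of the enzymes in the vesicle, Smpd3, a neutral sphingomyelinase whose loss causes bone fragility and poor mineralization in mice, changed most. It had 302, 303 and 290 CPM in the libraries labelled Rorβ-CRISPR, against 29.9, 32.3 and 30.1 CPM in control. The lowest edited library was thus far above the highest control library. The means were 298 ± 7.32 and 30.8 ± 1.34 (SD, n = 3 each), a limma-trend log2 fold change of 3.24 (SE 0.035, adjusted p = 1.09e-52). Only 6 of the tested genes had a higher log2 fold change. Prmt7, on the opposite strand, shares 247 exonic bases with Smpd3, or 4.72% of its length in GENCODE M21. The labels give no strand, so reads in that stretch cannot be told apart between these genes. Prmt7 had 51.3 ± 0.749 CPM in the edited libraries and 35.3 ± 1.95 CPM in control (log2 fold change 0.53), a difference far smaller than that of Smpd3.

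Phospho1, the phosphatase that acts on phosphocholine and phosphoethanolamine in matrix vesicles, had 157, 148 and 146 CPM in the libraries labelled Rorβ-CRISPR, against 53.6, 55.4 and 49.2 CPM in control. The groups did not overlap. Its log2 fold change was 1.498 (SE 0.038, adjusted p = 1.85e-33, limma-trend). The read count of this gene may not be its own alone. In GENCODE M21, Abi3, an adaptor gene known from blood cells, lies on the opposite strand and shares 1708 of the 2029 exonic bases of Phospho1, or 84.2%. Abi3 had 0.849, 0.837 and 0.839 reads for each Phospho1 read in the edited libraries, against 0.841, 0.847 and 0.833 in control. This ratio stayed between 0.833 and 0.849 in all 6 libraries while Phospho1 differed 2.86-fold between the groups (log2 fold change of Abi3 1.497), and Abi3 was also the tested gene whose profile lay nearest to that of Phospho1. Without strand, the reads of Phospho1 and Abi3 cannot be told apart.

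Zfp652, a zinc finger gene on the same strand, has annotated exons that cover 89.6% of those of Phospho1. It had 238 ± 6.32 CPM in the edited libraries and 142 ± 0.886 CPM in control (log2 fold change 0.74). Less the Phospho1 value, Zfp652 was 86.4, 90.03 and 84.99 CPM in the edited libraries, against 89.2, 87.6 and 92.2 CPM in control. After this subtraction the groups overlapped, so the difference in Zfp652 was about as large as that in Phospho1. Whether the authors' annotation counted the same reads in these rows was not tested, since it is not given in the sources used here.

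Alpl, the tissue-nonspecific alkaline phosphatase, had 22.6, 24.3 and 21.5 CPM in the libraries labelled Rorβ-CRISPR, against 11.2, 10.4 and 10.9 CPM in control. The groups were about 2-fold apart and did not overlap. The log2 fold change was 1.01 (SE 0.066, adjusted p = 6.63e-19, limma-trend), and no other annotated gene shares its exons. Its intestinal and germ cell relatives Alpi, Akp3 and Alppl2 were not detected in any of the 6 libraries, and a count of 0 allows up to 3 reads per library.

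Enpp1 works against Alpl by making pyrophosphate, and its loss in mice causes excess mineral in soft tissue. It had 2, 3 and 3 reads in the libraries labelled Rorβ-CRISPR, against 25, 43 and 32 reads in control. In CPM these were 0.0542, 0.0651 and 0.068 in the edited libraries, against 0.676, 1.12 and 0.792 in control. Enpp1 was therefore low in both groups and lower in every edited library than in any control library. Per effective library size, the summed reads were 13.7-fold lower in the edited libraries, with an exact 95% counting interval of 6.7 to 32.6. Such intervals cover counting error only. Enpp1 reached a value of 1 in 1 library and so was not part of the limma-trend test. In the authors' deposited table its fold is 0.0763 and its q-value 3.02e-15.

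Ank, the membrane protein through which ATP and pyrophosphate leave the cell, had 130, 130 and 123 CPM in the libraries labelled Rorβ-CRISPR, against 113, 118 and 112 CPM in control. The groups did not overlap, though the nearest libraries were only a few CPM apart. The log2 fold change was 0.16 (SE 0.032, adjusted p = 2.04e-05, limma-trend), which is below the median size of all changes: 60.9% of tested genes changed more. Centred on the other genes of its chromosome, 15, its log2 fold change was 0.43 (adjusted p = 1.34e-16).

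Of the 2 phosphate importers, known as PiT-1 (Slc20a1) and PiT-2 (Slc20a2), 1 was called, and as lower. Slc20a2 had 35.3, 32.6 and 32.5 CPM in the libraries labelled Rorβ-CRISPR, against 40.2, 37.9 and 37.9 CPM in control. The groups did not overlap, and the log2 fold change was -0.20 (SE 0.048, adjusted p = 2.53e-04, limma-trend). Slc20a1 had 33.6, 36.5 and 36.2 CPM in the edited libraries, against 33.5, 34.6 and 32.4 CPM in control. These values overlapped, and the log2 fold change of 0.08 (95% interval -0.02 to 0.17) did not pass (adjusted p = 0.168, limma-trend). Of the exonic bases of Slc20a1, 8.1% are shared with 9830144P21Rik on the opposite strand. Scaled by library size only, which moves the median gene by 0.21, the call passed from one importer to the other: Slc20a2 was at 0.02 (adjusted p = 0.841) and Slc20a1 at 0.30 (adjusted p = 9.41e-05). Per kb of exon, the importers together had 11.7 ± 0.049 CPM in the edited libraries and 12.2 ± 0.289 CPM in control (SD, n = 3 each). This sum is under the deposited TMM scaling and was not computed with library size only. The sodium phosphate transporters of the other family, Slc34a1, Slc34a2 and Slc34a3, had at most 2 reads in any library.

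Fam20c, the secretory pathway kinase of casein type, had 54.2, 56.3 and 56.2 CPM in the libraries labelled Rorβ-CRISPR, against 40.6, 39.9 and 41.3 CPM in control. The groups were well apart, with a log2 fold change of 0.44 (SE 0.042, adjusted p = 3.46e-13, limma-trend). Centred on its chromosome, 5, the log2 fold change was 0.24 (adjusted p = 3.57e-06). Chosen after their values were seen, its pseudokinase relative Fam20a was at -0.35 and the xylose kinase Fam20b at 0.20.

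**Figure D2:**
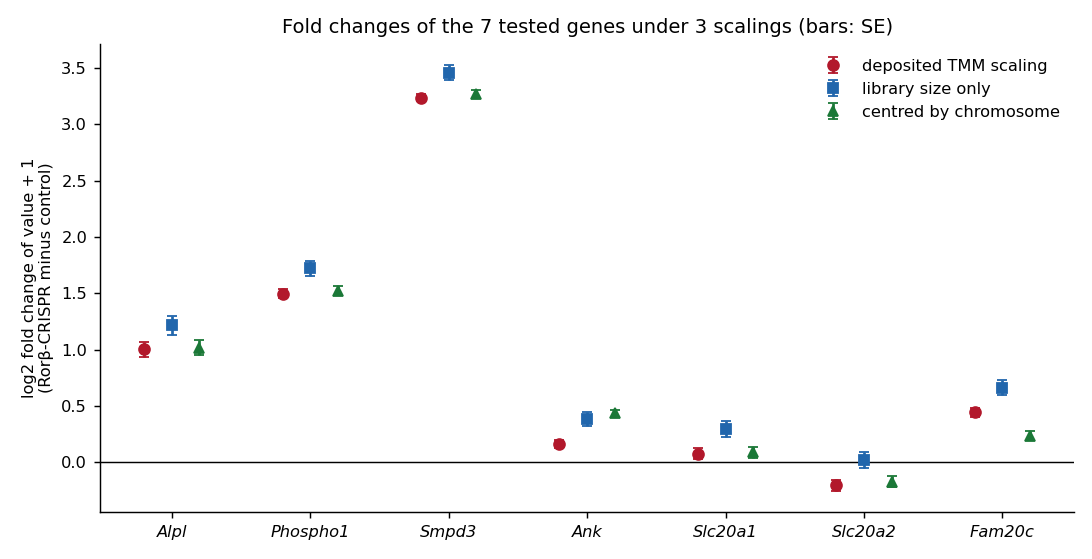
Log2 fold change of value + 1 (points; bars are SE from limma-trend) for the 7 tested genes under the deposited TMM scaling, library size only and centring by chromosome. Smpd3, Phospho1 and Alpl lie at 1.01 or above under all 3, whereas Slc20a2 goes from -0.20 to 0.02 with library size only.

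To compare levels between these genes, values were divided by the exonic length in GENCODE M21. In the libraries labelled Rorβ-CRISPR the order was Phospho1 (74.3 CPM per kb), Smpd3 (57.0), Ank (35.4), Fam20c (8.43), Slc20a1 (6.35), Alpl (5.65), Slc20a2 (5.38) and Enpp1 (0.006). Of these neighbours, Alpl and Slc20a2 overlapped in their libraries and the rest did not. In control the order was Ank (31.6 CPM per kb), Phospho1 (24.3 to 27.3), Slc20a2 (6.22), Fam20c (6.16), Slc20a1 (6.01), Smpd3 (5.88), Alpl (2.69) and Enpp1 (0.084), and the 4 genes from Slc20a2 to Smpd3 overlapped each with the next. Smpd3 thus stood among the phosphate importers in control and next to Phospho1 in the edited libraries. The Phospho1 level may include reads of Abi3, as above.

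**Figure D3:**
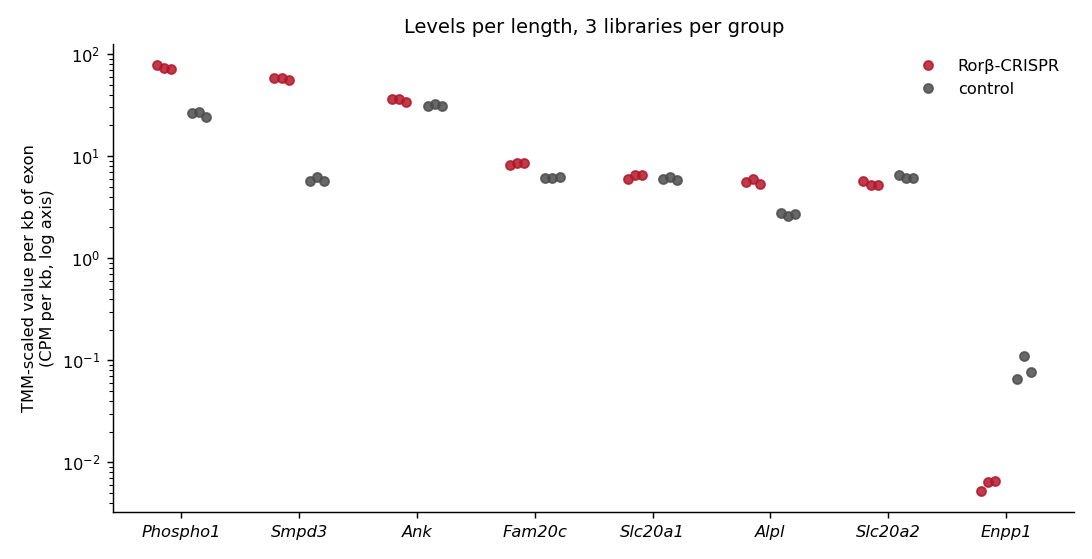
Value per kb of exon (CPM per kb, log axis) in each library for the 8 genes, ordered by their mean in the libraries labelled Rorβ-CRISPR. Smpd3 is at 57.0 in the edited libraries, against 5.88 in control, and Enpp1 is the lowest gene in both groups.

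Ratios within a library do not depend on how libraries are scaled. Alpl had 418, 373 and 316 reads for each Enpp1 read in the libraries labelled Rorβ-CRISPR, against 16.6, 9.35 and 13.8 in control, a difference of 4.83 in log2. With a pseudocount of 1 on both values, that difference was 1.81. Smpd3 had 1.92, 2.04 and 1.98 reads for each Phospho1 read in the edited libraries, against 0.559, 0.583 and 0.611 in control. Their order by reads was reversed, but reads are not corrected for exonic length. Per kb of exon, Phospho1 stayed above Smpd3 in both groups. The values were 74.3 against 57.0 CPM per kb in the edited libraries, and 24.3 to 27.3 against 5.88 in control. The Phospho1 reads in this ratio and in that to Alpl cannot be told apart from those of Abi3. Alpl to Ank rose by 0.91, Phospho1 to Alpl by 0.45 and Slc20a1 to Slc20a2 by 0.29 in log2. In each of these 5 ratios every edited library was above every control library. How often other gene pairs do so was not computed, and 68.4% of single tested genes had no overlap between the groups. The genes were chosen with earlier results known, and the ratios restate their fold changes. The exact two-sided permutation p was 0.1 for each ratio, also when adjusted over the 5. That is the smallest that 3 against 3 libraries allow, so none could pass 0.05.

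**Figure D4:**
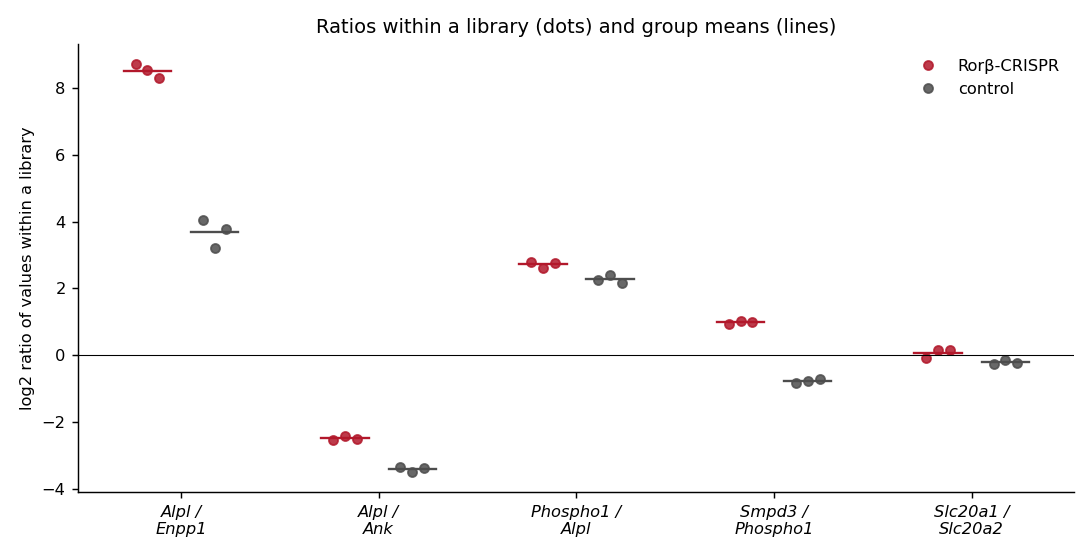
Log2 ratio of the values of 2 genes within each library (dots), with group means (lines), for 5 pairs. All edited libraries lie above all control libraries in each pair, by 4.83 on average for Alpl to Enpp1 and by 0.29 for Slc20a1 to Slc20a2. How often other gene pairs do so was not computed.

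Other genes of phosphate and vesicle handling were mixed in direction, as were all tested genes, of which 32.9% were called higher and 33.3% lower. These shares are the background for the counts in each list below. Of 9 tested genes of phosphate and pyrophosphate handling, 5 were higher and 2 lower, with a median log2 fold change of 0.12, beside 0.002 over all tested genes. Panx3, a channel for ATP release in osteoblasts and cartilage, rose to 73.0 ± 4.90 CPM in the edited libraries, against 14.4 ± 1.32 CPM in control (log2 fold change 2.27, adjusted p = 3.23e-32, limma-trend). The cytosolic pyrophosphatase Ppa1 rose by 0.55 in log2. Nt5e, which forms adenosine from AMP outside the cell, was at -0.49, and the sugar phosphate exchanger Slc37a2 at -0.80, with 0.818 CPM in the edited libraries and 2.16 CPM in control.

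Of 18 tested genes of sphingomyelin and phosphocholine handling, 4 were higher and 8 lower, with a median of -0.09. Among those of smallest adjusted p, Sgms2, a sphingomyelin synthase that makes the lipid Smpd3 cleaves, rose to 56.0 ± 2.04 CPM, against 30.4 ± 1.12 CPM in control (0.86). Sphk1, a sphingosine kinase, fell to 22.1 ± 0.845 CPM, against 66.1 ± 0.628 CPM (-1.54). The phosphodiesterase Smpdl3a was at -1.70 and the acid ceramidase Asah1 at -0.43.

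Of 14 annexins and matrix vesicle proteins, 1 was higher and 6 lower, with a median of -0.03. The calcium-dependent membrane binder Anxa6 fell to 445 ± 7.21 CPM, against 708 ± 4.86 CPM in control (-0.67). Anxa11 and the tetraspanin Cd81 were lower, at -0.61 and -0.26, and Anxa4 was the gene that rose, at 0.35. Also lower were Rab27a (-1.10), Anxa1 (-0.15) and Anxa5 (-0.08). Rab27a was low, with 0.403 CPM in the edited libraries and 1.99 CPM in control, and passed the filter on values only through control. The remaining 7 did not pass the test.

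Of 8 tested relatives of these genes by name, 3 were higher and 4 lower, with a median of -0.12. Enpp2, the lysophospholipase autotaxin, rose to 31.5 ± 1.09 CPM, against 17.04 ± 0.333 CPM in control (0.85), and Enpp4 fell (-0.69). The acid sphingomyelinase Smpd1 and the neutral sphingomyelinase Smpd2 fell, at -0.32 and -0.51, while Smpd3 rose.

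Among 7 tested proteins that bind mineral or are phosphorylated by Fam20c, 2 were higher and 4 lower, with a median of -0.17. Ibsp, bone sialoprotein, rose to 491 ± 26.7 CPM, against 128 ± 3.82 CPM in control (1.93), and Spp1, osteopontin, fell to 227 ± 3.73 CPM, against 408 ± 5.02 CPM (-0.84). The osteocalcin gene Bglap and the osteonectin gene Sparc fell, at -1.11 and -0.64. Bglap shares sequence with its close copies, so its reads are uncertain.

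Of 8 tested chloride, proton and bicarbonate transporters, 3 were higher and 4 lower, with a median of -0.09. The chloride proton exchanger Clcn5, on chromosome X, was at 0.55, where the median of chromosome X was 0.65. Slc4a7, a bicarbonate transporter on chromosome 14, was at -0.88, where the chromosome median was -0.53.

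Of 12 transcriptional regulators known from mineralizing cells, 4 were higher and 7 lower, with a median of -0.19. The 4 of smallest adjusted p were all lower: Vdr, the vitamin D receptor (-1.82), Bhlhe40 (-0.61), Atf4 (-0.47) and Trps1 (-0.46). Vdr, Atf4 and Trps1 lie on chromosome 15. Chosen after their values were seen, Runx2 and Sp7, the factors that define the osteoblast lineage, rose by 0.22 and 0.26 in log2.

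**Figure D5:**
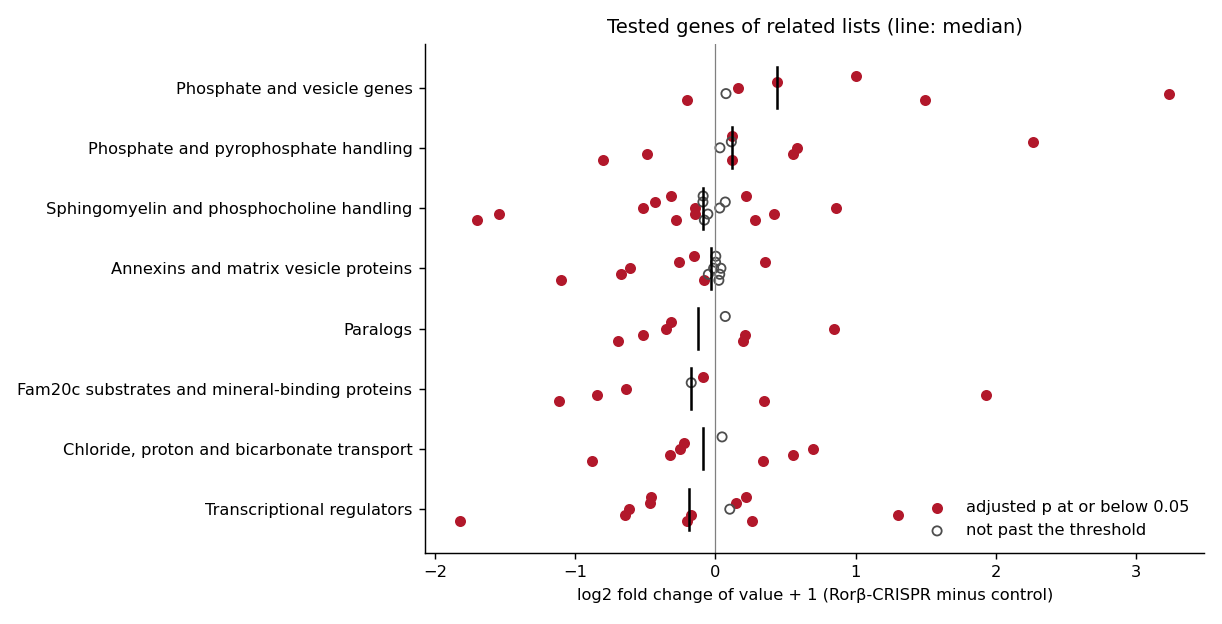
Log2 fold change of value + 1 of every tested gene in 8 lists (filled, adjusted p at or below 0.05 by limma-trend; open, not past it), with each list's median as a line. The 7 phosphate and vesicle genes have a median of 0.44, and the medians of the related lists lie between -0.19 and 0.12.

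The label of an osteoblast was checked against markers. All 12 osteoblast markers were tested, and 5 were higher and 7 lower in the libraries labelled Rorβ-CRISPR, against 32.9% and 33.3% of all tested genes. Their summed level was 39255 to 40589 CPM, against 66442 to 68804 CPM in control, most of it collagen. Col1a2 fell (-0.82), and Ifitm5, a membrane gene of osteoblasts that is needed for normal mineral, rose to 5.46 ± 0.248 CPM, against 0.236 ± 0.148 CPM in control (2.39).

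Chondrocytes also use Alpl, Phospho1 and Enpp1. Of 10 chondrocyte markers 5 were tested, 2 higher and 3 lower, with a summed level of 236 to 249 CPM, against 330 to 353 CPM in control. Aggrecan (Acan) had 0 reads in all libraries, Col2a1 and Sox9 were at -0.60 and -0.20, Col11a2 at 0.57 and Hapln1 at -1.01. The sum of 8 adipocyte markers was 9.46 to 9.71 CPM, against 7.66 to 10.1 CPM in control, with Plin1, Cd36 and Cidec at 0 reads, 0.903 against 0.722 CPM for Lpl and 8.34 against 7.82 CPM for Cebpa (not called). Both tested skeletal muscle markers were lower, Des at -1.45 and Acta1 at -0.28, in a list of 8 that summed to 3.30 to 3.67 CPM, against 9.16 to 10.6 CPM, with Myod1 and Myog at 0 reads. Macrophage and blood cell markers summed to 16.8 to 18.2 CPM, against 23.2 to 26.6 CPM, with Lyz2 at -0.88, Csf1r not called (-0.04) and Emr1 at 0 reads. Endothelial markers summed to 2.78 to 3.58 CPM, against 1.11 to 1.82 CPM, with Vwf at 0.78, Pecam1 at 0.293 against 0.314 CPM (not tested) and Cdh5, Kdr, Emcn and Cldn5 at 0 reads. Neuronal markers summed to 48.4 to 54.8 CPM, against 44.2 to 50.6 CPM, with Tubb3 at 2.23, Map2 at -1.06 and Rbfox3 and Snap25 at 0 reads. The part of these markers in the results above was not tested. Since RNA is from bulk cultures, more cells of a kind and more RNA per cell cannot be told apart.

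For each tested gene, the gene with the most similar profile was found as the smallest Euclidean distance over the 6 libraries between log2(value + 1) less the control mean. After Abi3 for Phospho1 (distance 0.023), these were Tmcc1 for Ank (0.017), Mafg for Slc20a1 (0.032), Sec23ip for Slc20a2 (0.039), Prdx6 for Fam20c (0.046) and Klhl23 for Alpl (0.084). The gene nearest to Smpd3 lay farther off. The distance depends largely on the size of the change, and only 6 tested genes had a higher log2 fold change than Smpd3. Its nearest gene was Prrg1, at 0.304, which rose by 3.10 in log2. Prrg1 was at a far lower level, with 14.5 CPM in the edited libraries and 0.813 CPM in control.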

How the data were processed

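RNA from 3 libraries labelled Rorβ-CRISPR and 3 control libraries of MC3T3-E1 cells was sequenced by the authors. Alignment and counting tools named in the submitters' processing notes are TopHat2 2.0.6 and HTSeq, with the build mm9. The sources used here do not give the annotation, the strand or the counting options. Per the file headers, the deposited values per library are a signal scaled with TMM, and the authors also deposited group median counts, a fold (ratio), a p-value and a q-value for each gene. Divided by what 1 read is worth, 100% of values in each library came out whole (within 0.01), and in 43346 of 43346 rows the group medians of these recovered reads matched the deposited median counts. The design allowed for counts. Since the values are scaled, its limma-trend test (robust) was used on log2(value + 1). Rows entered if 3 or more libraries had a value of 1 or more, with Benjamini-Hochberg adjustment over all 13498 tested rows. Fold changes on this scale understate those of low genes. The quasi-likelihood test of edgeR, given recovered reads, called 8925 of the same rows (66.1%). The test was also run on simulated data in which few genes changed. That check does not show how the test behaves where most genes differ, as here. Genes and 14 related lists were chosen with earlier results of these data known. The genes named are Rorb, the 8 genes, in each list up to 4 called genes of smallest adjusted p or else the most abundant to make 2, and the nearest profile of each. Some genes that this rule names are not reported here. Exonic lengths and overlaps are from GENCODE M21 (GRCm38), chromosomes and neighbours from RefSeq (GRCm38.p6), matched by symbol (93.2% of tested rows). Fits used limma 3.58.1, edgeR 4.0.16 and, as an alternative, DESeq2 1.42.0 in R 4.3.3. Permutation tests and intervals used scipy 1.17.1 in Python 3.11.15, and figures matplotlib 3.10.9.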

Additional observations from a re-analysis of the deposited data

How the results depend on the processing

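Of 157 repeats of the log2 fold changes under other settings, 149 kept direction and call. Where only the filter or the threshold changed, in the 1.5-fold test and with a replicate block, the log2 fold change could not move. In those repeats the direction was fixed in advance, and only the call could differ. Scaled by library size only, the calls were 7273 up and 1985 down, so that 78.6% of calls were up, where the deposited scaling gave 49.7%, with 0 of the 7 tested genes lower (Enpp1 was not tested), Slc20a1 called at 0.30 and Slc20a2 turned to 0.017. Without a filter, Enpp1 was called (-0.80), which made 2 genes lower. The counts were also 2 with a filter at 0.5 (-0.80) and in edgeR with its own filter (-3.71, added after seeing the data), but there Enpp1 passed the filter only through control, where it is high, so these calls are no support. When tested for more than a 1.5-fold change, 413 genes passed as higher and 645 as lower, with 3 of the 7 tested genes higher and 0 lower. There Ank (0.16), Fam20c (0.44) and Slc20a2 (-0.20) lost their calls. Leaving out 1 replicate gave 4154 to 4286 genes higher and 4250 to 4321 lower, with 5 higher and 1 lower of the 7 tested genes each time. The labels do not say whether the replicate numbers pair the libraries. The deviations of same-numbered libraries correlated at -0.06, 0.17 and 0.13. Edited libraries 2 and 3 correlated best with the control library of their own number, and edited library 1 did not. With 3 libraries per group, these values cannot decide whether the libraries are paired. A replicate block gave 4502 higher and 4551 lower and 5 and 1 of the 7 tested genes. The Alpl to Enpp1 difference was 4.83, which a block cannot change when every replicate number is in both groups. The share of reads in 3 rows that collect ribosomal RNA was 13.1% to 15.2% in the edited libraries and 16.9% to 25.4% in control. Without these rows in the scaling, the 7 tested genes kept their calls. Depth limits Enpp1, with 2 or 3 reads per edited library.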

Other observations

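Enpp1 and Enpp3 are neighbours on chromosome 10, with no other protein-coding gene between them in the RefSeq annotation of GRCm38.p6, and both encode ectoenzymes that cleave nucleotides. Enpp3, chosen after its values were seen, had 2, 6 and 0 reads in the libraries labelled Rorβ-CRISPR, against 24, 51 and 41 in control. Its summed reads per effective library size were 15.9-fold lower in the edited libraries, with an exact 95% counting interval of 7.81 to 37.7. Med23, next to Enpp3, was at -0.05 in log2 (adjusted p = 0.307, limma-trend) and Ctgf (also Ccn2), next to Enpp1, at -0.29 (adjusted p = 0.00575, limma-trend). Stx7, beyond Ctgf on that side, was at -0.16 (adjusted p = 9.06e-04, limma-trend). Neither Enpp1 nor Enpp3 passed the filter on values. Next to Smpd3 on chromosome 8, Zfp90 was at 0.05 (adjusted p = 0.525, limma-trend), Prmt7 at 0.53 and Slc7a6os at 0.49. Next to Alpl on chromosome 4, Rap1gap was at -0.06 (adjusted p = 0.305, limma-trend) and Ece1 at -0.13. Neighbours were looked at after the values were seen.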
